A study of Mus musculus with 6 samples.

Results

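The comparison described here set tumour cells taken from lungs after 2 weeks, with the inhibitor GW2580 given from 1 week on, against tumour cells taken from lungs of vehicle-treated mice after 1 week. It used 4 of the 6 arrays of the series, 2 in each group, chosen by their titles, and 13090 of the 18193 genes on the array that have a probe set with a single gene symbol. The other 2 arrays, tumour cells from vehicle-treated mice at 2 weeks, entered the estimate of the spread and are given beside the comparison.

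All 3 groups held GFP-labelled MVT1 cells, a metastatic mouse mammary tumour line, that had been injected into a tail vein of syngeneic FVB/N mice and later sorted from dissociated lungs by their GFP. The vehicle was a hydroxypropylmethylcellulose suspension, and GW2580 was given by daily gavage at 160 mg per kg. MVT1 is 1 cell line, so the arrays describe its cells and no other tumour. The design text gives 2 mice for each vehicle group and does not give the number behind the GW2580 arrays, so p-values measure only the spread between these arrays. Time in the lung and the drug both differ between the 2 groups compared, and they cannot be told apart here. Where the vehicle arrays at 2 weeks are given beside a gene, each of the 3 differences shares arrays with the others.

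GW2580 blocks the kinase of CSF1R, the receptor that macrophages need for growth and survival, and its ligands are CSF1 and IL34. In mammary tumours, macrophages are known to help cancer cells leave vessels and grow in the lung. Tumour cells that settle in the lung pass from single cells to solid colonies, in which supply of oxygen, lipid and growth factors can change with time. HIF factors turn on genes for low oxygen, SREBP2 turns on cholesterol synthesis when sterol is scarce, LXR turns on sterol export when it is plentiful, and E2F and the DREAM complex time the genes of the cell cycle.

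The values are RMA log2 values, which are relative brightness and not counts, and a difference of 1 is a 2-fold change. Median values of the 6 arrays lay between 5.57 and 5.63. The root mean square difference between arrays, over the 13090 tested genes, was 0.252 for the pair at 1 week and 0.309 for the GW2580 pair. Between those 2 groups it was 0.374 and 0.443 from vehicle replicate 1 at 1 week to the GW2580 arrays, and 0.321 and 0.336 from vehicle replicate 2. The 2 arrays of 1 week thus lay at different distances from the GW2580 arrays, and the nearer one was little farther from them than they were from each other. The spiked poly-A controls averaged 7.78 and 7.74 at 1 week and 8.08 and 8.66 under GW2580, and the part of this in any result was not tested. The actin probe sets differed by 1.2 between 3' and 5' ends on vehicle replicate 2 at 2 weeks, against 0.38 to 0.5 on the other 5 arrays, and those of Gapdh by 0.92, against -0.13 to -0.1. That array enters the estimate of the spread and the values given for vehicle at 2 weeks, and the part of its RNA quality in them was not tested. Of the epithelial markers, the keratin Krt8 read 13.52 to 13.82 and Krt18 12.93 to 13.44 on all 6 arrays, Epcam read 6.85 to 7.31, and the cadherin Cdh1 was under the filter on low values, at 3.49 to 3.99.

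Between vehicle at 1 week and GW2580 at 2 weeks, 67 of 13090 genes passed an adjusted p of 0.05 in limma with Benjamini-Hochberg adjustment, which is 0.512% of those tested. Of these, 47 (0.359%) rose and 20 (0.153%) fell, and for 47 of the 67 the change was 2-fold or more. Among the largest rises were those of ceruloplasmin, galectin 2, the growth factor Pdgfc and the sterol exporter Abca1. Among the largest falls were those of the serpin Serpinb9g, the glutathione transferase Gstt4 and the kallikrein Klk6. Over all genes the median difference was -0.02, and 45.8% of genes lay above 0. For 18.8% of all genes both GW2580 arrays lay above both arrays of 1 week, and for 27.9% both lay below, so non-overlap of 2 against 2 arrays is frequent here.

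No call held with each array left out in turn. Without vehicle replicate 1 at 1 week, or without GW2580 replicate 2, none of the 13090 genes passed in limma, with 1104 and 2159 genes at an unadjusted p under 0.05, as against 2224 with all arrays. Without vehicle replicate 2 at 1 week 38 genes passed, and without GW2580 replicate 1 it was 169. Without either array of vehicle at 2 weeks 24 passed, since those arrays then add nothing to the estimate of the spread. All 67 genes kept their direction in each of these fits. For 32 of them the array carries other probe sets, and all 34 of those above the filter pointed the same way.

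**Figure D1:**
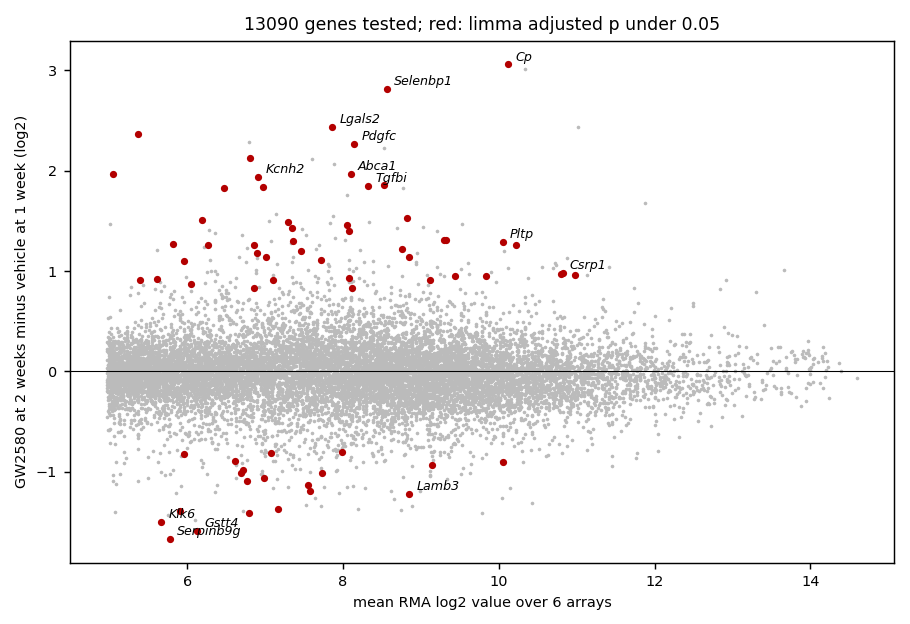
Difference between GW2580 at 2 weeks and vehicle at 1 week for each of the 13090 genes (vertical axis, RMA log2) against its mean over the 6 arrays (horizontal axis, RMA log2), with the 67 genes that passed marked. The 47 rises reach 3.06 and the 20 falls reach -1.67, and most genes lie near the median of -0.02.

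The largest rise was that of Cp, ceruloplasmin, a copper-carrying ferroxidase that is secreted in the acute phase. Cp read 7.65 and 8.67 at 1 week, 11.25 and 11.18 under GW2580 at 2 weeks, and 10.85 and 11.12 with vehicle at 2 weeks. The arrays of 1 week were the 2 lowest, with no overlap, and the GW2580 arrays stood beside those of vehicle at 2 weeks. The difference from 1 week was 3.06 (SE 0.29, adjusted p = 0.00767 in limma), and that from vehicle at 2 weeks was 0.23 (adjusted p = 0.714). The other 6 probe sets of Cp above the filter differed by 1.7 to 3.19.

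Abca1, Abcg1 and Pltp, which move sterols and phospholipids out of cells and between lipoproteins, rose. Abca1, which loads cholesterol on apolipoprotein A-I, read 6.39 and 7.11 at 1 week, 8.72 and 8.72 under GW2580 and 8.88 and 8.78 with vehicle at 2 weeks. Both later groups lay above both arrays of 1 week, and Abca1 rose by 1.97 (SE 0.22, adjusted p = 0.0166 in limma). Abcg1, which passes cholesterol to HDL, read 7.87 and 8.25 at 1 week and 9.10 and 9.31 under GW2580, a rise of 1.14 (SE 0.17, adjusted p = 0.04 in limma). Pltp, the phospholipid transfer protein, read 9.41 and 9.45, then 11 and 10.45, a rise of 1.29 (adjusted p = 0.0382 in limma), beside 10.10 and 9.85 with vehicle at 2 weeks. In all 3 genes the GW2580 arrays lay above both arrays of 1 week. A list of known LXR targets and receptors was put together after these values were seen, so it supports nothing. Among its other 8 tested members none passed, with Mylip at 1.09, Apoc1 at 1.00 (adjusted p = 0.057 in limma), Scd1 at 0.42, Apoe at 0.40 and Abca7 at -0.50.

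The 250 bases before the start of Abca1, from RefSeq (GRCm38.p6, chr4:53159896-53160145, minus strand, written 5′ to 3′), are shown because they hold a DR4 element, the repeat that LXR is known to bind. The search was for GGTTA, any 5 bases and GGTCA on either strand, the match is in capitals, and here it reads on the opposite strand.
Abca1: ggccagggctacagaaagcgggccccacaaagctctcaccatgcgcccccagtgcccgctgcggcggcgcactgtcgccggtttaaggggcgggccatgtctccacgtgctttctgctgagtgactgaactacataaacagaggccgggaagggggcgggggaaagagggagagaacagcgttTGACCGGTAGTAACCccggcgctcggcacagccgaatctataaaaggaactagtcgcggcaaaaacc
The DR4 search, like the list, was chosen after the values were seen, so its counts support nothing. The element was found in 2 of 13 promoters of the LXR list, those of Abca1 and Srebf1. Of the 13369 promoters of tested genes, 0.0598% held it. Srebf1 itself differed by 0.16.

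Secreted factors and proteins of the matrix were among the other rises. Lgals2, galectin 2, a sugar-binding lectin, read 6.42 and 6.69 at 1 week, 8.74 and 9.25 under GW2580 and 8.06 and 8.0 with vehicle at 2 weeks. The 3 groups did not overlap, with GW2580 highest, and Lgals2 rose by 2.44 from 1 week (SE 0.19, adjusted p = 0.00638 in limma), although its second probe set differed by only 0.37. Pdgfc, a ligand of the PDGF receptor alpha, read 6.45 and 6.86, then 8.71 and 9.12, with 8.75 and 8.94 for vehicle at 2 weeks. It rose by 2.27 (SE 0.19, adjusted p = 0.00638 in limma), and its groups of 2 weeks overlapped. Tgfbi, a matrix protein induced by TGF-beta, read 6.98 and 7.40, then 9.0 and 9.09, a rise of 1.85 (SE 0.17, adjusted p = 0.00638 in limma), and its 3 other probe sets differed by 1.52 to 1.94. Both Pdgfc and Tgfbi had their lowest values on the 2 arrays of 1 week.

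Further matrix proteins rose as well. Fbln7, a fibulin, rose by 1.97 (adjusted p = 0.0185 in limma). It read 4.04 and 4.3 at 1 week, under the filter value of 4.97. Fbln7 passed that filter only through its GW2580 arrays, at 5.89 and 6.4. Sned1 rose by 1.86 (adjusted p = 0.0412 in limma) and Prelp, a small leucine-rich proteoglycan, by 1.49 (adjusted p = 0.00638 in limma). Vwa1 rose by 1.27 (adjusted p = 0.0382 in limma). The matricellular proteins Ccn5 and Ccn4 rose by 1.40 and 1.20, and Olfml3 by 1.31. P4ha2, which hydroxylates collagen prolines, read 7.78 and 8.12 at 1 week and 9.16 and 9.81 under GW2580 and rose by 1.53 (adjusted p = 0.037 in limma). Markers of fibroblasts and smooth muscle, which also make matrix, had a median difference of -0.58 with none passing. That median ran from -1.054 to -0.325 as single arrays were left out. The part of such cells in the matrix values was not tested. In the matrix and protease list, 1 of 20 tested members passed, and it fell. That gene was Lamb3, a laminin chain of the basement membrane, which read 9.77 and 9.61 at 1 week, 8.33 and 8.60 under GW2580 and 8.20 and 8.55 with vehicle at 2 weeks. It fell by 1.22 (SE 0.17, adjusted p = 0.0312 in limma), with both arrays of 1 week above all 4 others.

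Receptors, channels and signalling proteins also rose. Kcnh2, a voltage-gated potassium channel, read 6.16 and 6.07 at 1 week, 6.92 and 6.20 with vehicle at 2 weeks and 8.04 and 8.07 under GW2580. The GW2580 arrays stood above all 4 others, and Kcnh2 rose by 1.94 (SE 0.22, adjusted p = 0.0171 in limma). Ackr3, a receptor that takes up the chemokine CXCL12, rose by 1.30, and Pde4b, which breaks down cyclic AMP, by 1.26. Smad6, an inhibitor of BMP signalling, rose by 0.92, the stress gene Gadd45b by 0.91 and the peptidoglycan sensor Nod1 by 0.83. Bmf, a BH3 protein that promotes apoptosis, rose by 1.51.

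Among enzymes, Selenbp1, a methanethiol oxidase, read 5.94 and 7.45 at 1 week, 9.31 and 9.73 under GW2580 and 9.46 and 9.44 with vehicle at 2 weeks. It rose by 2.82 (SE 0.41, adjusted p = 0.0373 in limma), and the arrays of 1 week lay far apart but below all others. Chdh, which oxidises choline, rose by 2.13 (adjusted p = 0.0334), Gdpd2 by 1.84 (adjusted p = 0.00782) and Pdk2, a brake on pyruvate dehydrogenase, by 1.10 (adjusted p = 0.0324). Lrrc75b read 4.01 and 4.27 at 1 week, under the filter value of 4.97, and 6.32 and 6.70 under GW2580. The rise was 2.37 (adjusted p = 0.00638 in limma). Lrrc75b passed the filter only through its arrays of 2 weeks, which with vehicle read 5.55 and 5.31. The complement protease C1ra rose by 1.31, and the membrane proteins Tmem176a and Tmem176b by 1.26 and 0.97.

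**Figure D2:**
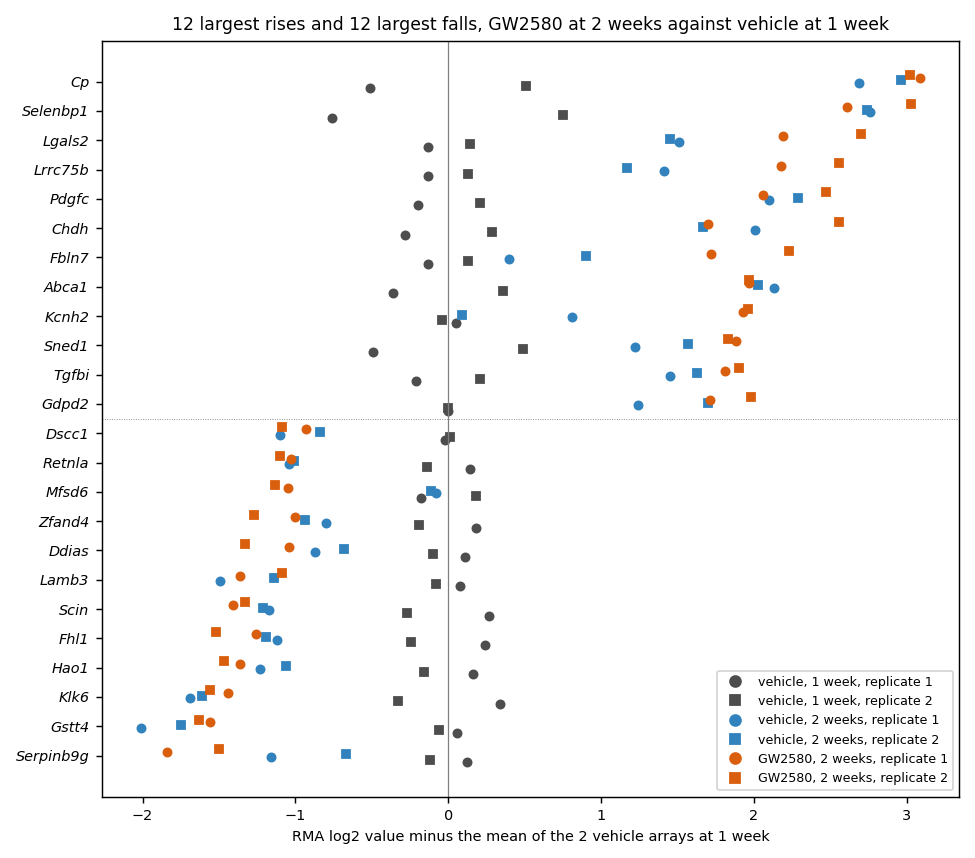
RMA log2 value on each of the 6 arrays minus the gene's mean over the 2 vehicle arrays at 1 week (horizontal axis), for the 12 largest rises and the 12 largest falls that passed in GW2580 at 2 weeks against vehicle at 1 week, with 1 gene per line and colour marking the group. Cp heads the rises at 3.06 and Serpinb9g the falls at -1.67, and for Cp, Pdgfc and Abca1 the vehicle arrays of 2 weeks lie with the GW2580 arrays, while for Kcnh2 they lie nearer to those of 1 week.

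The falls were smaller than the rises. Serpinb9g, a serpin of the family that inhibits granzyme B, read 6.75 and 6.51 at 1 week, 4.79 and 5.13 under GW2580 and 5.47 and 5.96 with vehicle at 2 weeks. The 3 groups did not overlap, and the fall was 1.67 (SE 0.20, adjusted p = 0.0229 in limma). Gstt4, a glutathione transferase, read 7.34 and 7.22, then 5.72 and 5.65, a change of -1.59 (SE 0.14, adjusted p = 0.00638 in limma), and with vehicle at 2 weeks it read still lower, at 5.27 and 5.53. Klk6, a secreted serine protease, changed by -1.50 (adjusted p = 0.033), Hao1, a peroxisomal hydroxyacid oxidase, by -1.41 (adjusted p = 0.0144), the LIM protein Fhl1 by -1.39 and the actin-severing protein Scin by -1.37 (adjusted p = 0.0304 for both). Hsd11b1, which makes active glucocorticoid, changed by -0.89 (adjusted p = 0.0483).

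Other genes that fell have known roles in the nucleus, and they are named here after their values were seen. Dscc1, which helps load the replication clamp for sister cohesion, changed by -1.01, Ddias, which protects cells from death after DNA damage, by -1.19, the histone methyltransferase Suv39h2 by -0.82 and the centromere protein Cenps by -0.80. Dscc1 read 7.33 and 7.36 at 1 week, 6.42 and 6.26 under GW2580 and 6.25 and 6.51 with vehicle at 2 weeks. Both groups of 2 weeks lay below both arrays of 1 week and overlapped each other.

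In the lists of cell-cycle genes, every tested member was lower under GW2580 at 2 weeks than at 1 week, and none passed the test. The DNA replication list had 29 tested members, from -0.99 to -0.11 with a median of -0.55, and for 28 of them both GW2580 arrays lay below both arrays of 1 week, as for 27.9% of all genes. The mitosis list also had 29, from -0.99 to -0.49 with a median of -0.71, and for all 29 the groups did not overlap. For vehicle at 2 weeks against 1 week, in which 844 of all genes passed (6.45%, with 3.74% higher and 2.71% lower), the medians were -0.51 and -0.93, with 10 and 21 members passing, but no gene passed there without vehicle replicate 1 at 1 week. In the comparison of GW2580 with 1 week, the replication and mitosis medians were -0.635 and -0.897 without GW2580 replicate 1. Without GW2580 replicate 2 they were -0.461 and -0.536.

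Single genes show the pattern. Rrm1, a subunit of ribonucleotide reductase, read 11.05 and 10.87 at 1 week, 10.25 and 10.12 under GW2580 and 10.34 and 10.43 with vehicle at 2 weeks, a difference of -0.77 from 1 week (adjusted p = 0.057 in limma). Aurka, the kinase of spindle poles, read 10.21 and 9.93, then 9.40 and 9.09, beside 8.75 and 8.74 with vehicle at 2 weeks, and differed by -0.82 (adjusted p = 0.0709). For Aurka the GW2580 arrays lay between the other groups, and for Rrm1 they lay below both. Cdc6, which loads the replicative helicase, read 8.28 and 7.97, then 7.26 and 7.14, a difference of -0.93 (adjusted p = 0.0703), beside 6.51 and 6.91. In the list of cyclins and CDK inhibitors 4 of 14 tested members were higher and 10 lower, with a median of -0.10 and none passing. Those with its smallest p-values were both higher, Ccng2 by 0.89 (adjusted p = 0.0935) and Rbl2 by 0.57 (adjusted p = 0.151).

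Promoters of these lists hold the sites by which the cell cycle is known to be timed. The CHR element, TTTGAA, lay in 17 of 24 promoters of the mitosis list (70.8%), against 12.1% of the 13369 promoters of tested genes, and the CCAAT box in 18 of them (75% against 36.9%), counting from 250 bases before to 50 after each start on both strands. An E2F site, searched as TTTCGCGC, TTTGGCGC, TTTCCCGC or TTTGCCGC on either strand, lay in 12 of 29 promoters of the replication list (41.4%), against 3.72%. Rrm1 had no E2F match in its promoter. The promoter of Cdc6 (RefSeq, GRCm38.p6, chr11:98907901-98908150, plus strand) is shown as an example picked after the values were seen, with the E2F match, read on the opposite strand, in capitals.
Cdc6: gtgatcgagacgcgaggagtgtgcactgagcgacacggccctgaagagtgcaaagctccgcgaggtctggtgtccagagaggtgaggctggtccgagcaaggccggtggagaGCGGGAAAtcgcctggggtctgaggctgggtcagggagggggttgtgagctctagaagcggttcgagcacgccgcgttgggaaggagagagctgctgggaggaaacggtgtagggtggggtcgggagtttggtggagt
The counts take in every tested member that has a promoter, whatever its value, so they describe the lists and support no result of the arrays. A match describes the letters of the promoter and no binding was measured.

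Genes of cholesterol synthesis were lower in all 19 tested members, with a median of -0.62 and a range from -1.41 to -0.13, and none passed. For 16 of them both GW2580 arrays lay below both arrays of 1 week, as for 27.9% of all genes. Cyp51, a sterol demethylase, read 9.60 and 8.75 at 1 week, 8.33 and 7.70 under GW2580 and 7.52 and 7.81 with vehicle at 2 weeks, a difference of -1.16 (SE 0.30, adjusted p = 0.111 in limma). Msmo1, a sterol methyl oxidase of the same pathway, read 10.68 and 10.00, then 9.67 and 9.15, a difference of -0.92 (adjusted p = 0.119), beside 9.13 and 9.22. In both genes replicate 1 at 1 week was the highest of the 6 arrays. The list's median was -0.39 without that array and -0.38 without GW2580 replicate 2. Against 1 week, the list's median with vehicle at 2 weeks was -0.72, with 8 members passing, all lower, where 2.71% of all genes were called lower. No gene passed in that comparison without vehicle replicate 1 at 1 week.

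The CCAAT box, which binds NF-Y beside SREBP2, lay in 15 of 18 promoters of the cholesterol list (83.3%), against 36.9% of those of tested genes. The SREBP site itself, searched as TCACNCCAC on either strand, lay in 1 of the 18, that of Hmgcs1 (5.56%, against 1.15%). These counts also describe the list, whatever the values of its members, and support no result of the arrays. The promoter of Msmo1 (RefSeq, GRCm38.p6, chr8:64733579-64733828, minus strand) held 3 CCAAT boxes, in capitals here, and was picked after its values were seen. The search was on either strand.
Msmo1: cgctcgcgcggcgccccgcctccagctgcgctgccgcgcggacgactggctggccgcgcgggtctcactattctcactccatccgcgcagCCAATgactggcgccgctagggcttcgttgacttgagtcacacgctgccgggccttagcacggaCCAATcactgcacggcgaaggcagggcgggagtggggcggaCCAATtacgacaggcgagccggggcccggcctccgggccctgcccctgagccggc

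Genes of the response to low oxygen were higher in 19 of 20 tested members, with a median of 0.94, while 1, P4ha2, passed. For 16 members both GW2580 arrays lay above both arrays of 1 week, as for 18.8% of all genes. The list's mean was 8.62 and 8.98 at 1 week, 9.39 and 9.91 under GW2580 and 9.33 and 9.56 with vehicle at 2 weeks. The 4 arrays of 2 weeks lay above the 2 of 1 week, and GW2580 replicate 2 was the highest. The list's median was 1.142 without GW2580 replicate 1, 0.629 without GW2580 replicate 2 and 0.655 without vehicle replicate 1 at 1 week.

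Vegfa, the main growth factor for vessels, read 7.64 and 7.81 at 1 week, 7.67 and 7.69 with vehicle at 2 weeks and 8.44 and 9.22 under GW2580. On this probe set only the GW2580 arrays were high, and the difference from 1 week was 1.11 (SE 0.23, adjusted p = 0.0786 in limma). A second probe set of Vegfa was of similar brightness (mean 7.96, against 8.08). It stood 1.33 above 1 week under GW2580, and also 0.48 above it with vehicle at 2 weeks. Outside the naming rule, and chosen after their values were seen, the mitophagy gene Bnip3 differed by 2.44 (adjusted p = 0.0503), Ndrg1 by 1.68 (adjusted p = 0.057) and the carbonic anhydrase Car9 by 1.11 (adjusted p = 0.0745). All 11 glycolysis genes were higher, with a median of 0.29 (0.17 without GW2580 replicate 2) and none passing. Among them the lactate exporter Slc16a3 differed by 1.36 (adjusted p = 0.0865) and Pfkl by 1.20. For vehicle at 2 weeks against 1 week the glycolysis median was 0.06.

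HIF factors bind ACGTG or GCGTG. At least 1 such site, on either strand, lay in 19 of 25 promoters of the hypoxia list (76.0%), but also in 59.4% of promoters of tested genes, since the motif is short. The promoter of P4ha2 (RefSeq, GRCm38.p6, chr11:54100674-54100923, plus strand), the list's called member, is shown with its matches in capitals.
P4ha2: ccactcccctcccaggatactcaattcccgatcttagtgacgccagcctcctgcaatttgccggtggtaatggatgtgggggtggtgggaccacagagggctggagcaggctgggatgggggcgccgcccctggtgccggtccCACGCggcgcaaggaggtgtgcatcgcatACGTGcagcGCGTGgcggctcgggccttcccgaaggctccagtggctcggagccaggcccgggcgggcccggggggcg
The matches shown begin at -107, -78 and -69 from the start, and another, at 10, lies after the start and outside the printed bases.

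**Figure D3:**
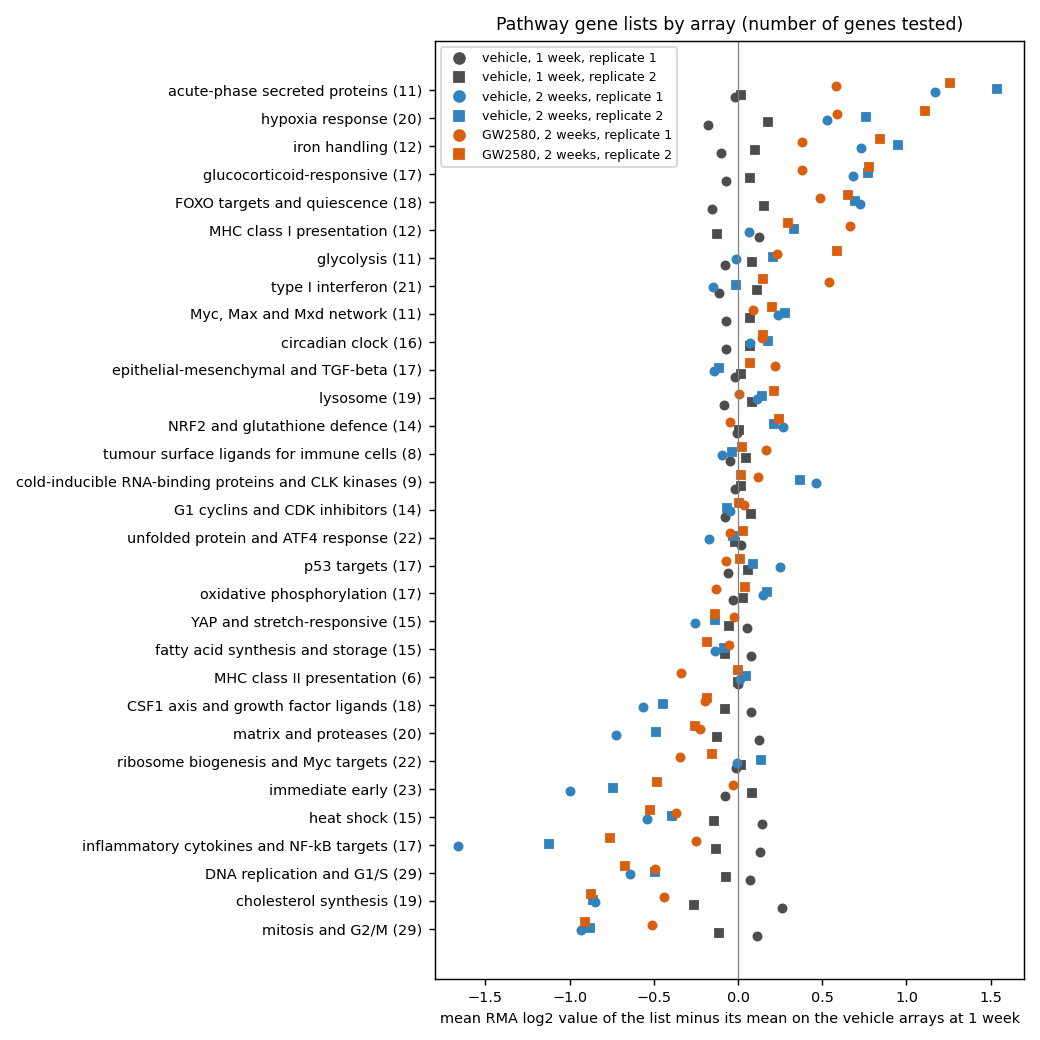
Mean RMA log2 value of each pathway list on each of the 6 arrays, minus the list's mean on the 2 vehicle arrays at 1 week (horizontal axis), with the number of tested genes beside each list's name. The hypoxia and FOXO lists lie to the right of 0 for all 4 arrays of 2 weeks, the mitosis and cholesterol lists to the left, and cytokine genes lie farther left with vehicle at 2 weeks than under GW2580.

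FOXO factors act when growth factor signalling is low. Of 18 tested FOXO and quiescence genes 16 were higher, with a median of 0.62 and none passing. Pik3ip1, a brake on PI3 kinase, read 6.81 and 7.5, then 8.47 and 8.83, a difference of 1.49 (adjusted p = 0.0569 in limma), and 9.41 and 8.98 with vehicle at 2 weeks. Sesn3, a sestrin that restrains mTORC1, read 7.76 and 8.09 at 1 week, 9.22 and 8.81 under GW2580 and 8.31 and 8.10 with vehicle at 2 weeks, a difference of 1.10 (adjusted p = 0.0557). Both genes had the GW2580 arrays above the arrays of 1 week, but with vehicle at 2 weeks Pik3ip1 was highest and Sesn3 was near its level at 1 week.

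Of acute-phase genes, Cp was the only 1 of 11 to pass, and the list's median was 0.34. Lcn2, lipocalin 2, which binds bacterial siderophores, read 7.56 and 8.47 at 1 week, 10.04 and 12 under GW2580 and 11.58 and 12.36 with vehicle at 2 weeks. The groups of 1 and 2 weeks did not overlap, but the GW2580 arrays lay far apart, and the difference of 3.01 (SE 0.59) did not pass (adjusted p = 0.0713 in limma). Orm1 differed by 2.23 and Lrg1 by 2.07, while Saa3 differed by -0.89. The list's median was 0.86 without GW2580 replicate 1 and 0.28 without GW2580 replicate 2. It was 0.55 and 0.60 without vehicle replicate 1 or 2 at 1 week. In the glucocorticoid list, 14 of 17 were higher with a median of 0.25 and none passed. Without GW2580 replicate 1 that median was 0.43, and without GW2580 replicate 2 it was 0.16. Mt2, a metallothionein, read 12.91 and 13.20, then 13.96 and 14.16, a difference of 1.01 (adjusted p = 0.0503).

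Inflammatory and immediate early genes were lower in most members and spread widely. For cytokines and NF-kB targets, 15 of 17 were lower with a median of -0.43, and no member passed. Il24, a cytokine of the IL-10 family, read 12.55 and 11.41 at 1 week, 10.90 and 10.45 under GW2580 and 8.18 and 9.12 with vehicle at 2 weeks. Its 3 groups did not overlap, with GW2580 in the middle, and the difference from 1 week was -1.31 (SE 0.41, adjusted p = 0.163 in limma). Ccl2, which draws monocytes, read 13.02 and 12.58, then 12.26 and 11.75, a difference of -0.79 (adjusted p = 0.166). Without GW2580 replicate 1 the list's median was -1.01 and without GW2580 replicate 2 it was -0.23. Of 23 immediate early genes 20 were lower, with a median of -0.19, and for 7 of them the groups did not overlap (30.4%, beside 27.9% of all genes). That median was -0.45 without GW2580 replicate 1, -0.05 without GW2580 replicate 2, -0.30 without vehicle replicate 1 at 1 week and -0.11 without vehicle replicate 2. For vehicle at 2 weeks against 1 week the median was -0.74. Atf3 differed by -0.84 (adjusted p = 0.211) and Dusp2 by -0.85 (adjusted p = 0.149).

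Genes for interferon response and antigen display on MHC class I were higher in most members, with none passing. In the interferon list 19 of 21 were higher with a median of 0.35, which was 0.10 without GW2580 replicate 1. Rtp4 differed by 1.18 (adjusted p = 0.101 in limma). For vehicle at 2 weeks against 1 week that list's median was -0.06, with 9 members higher and 12 lower. All 12 genes of the class I list were higher, with a median of 0.24, while with vehicle at 2 weeks the median against 1 week was 0.06. Psmb8, a subunit of the immunoproteasome, read 11.05 and 10.66, then 12.16 and 11.64, a difference of 1.04 (adjusted p = 0.0786), and 11.30 and 11.63 with vehicle at 2 weeks. Psmb8 was highest on GW2580 replicate 1, and the other 3 arrays of 2 weeks lay from 11.30 to 11.64.

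Genes of ribosome biogenesis were lower in 19 of 22 tested members, with a median of -0.27 and none passing. For vehicle at 2 weeks against 1 week the list's median was 0.01, with 13 members higher and 9 lower. Odc1, which makes polyamines, differed by -0.65 and Rrp12 by -0.60. Myc, which drives many of these genes, read 12 and 12.56 at 1 week, 12.46 and 12.83 under GW2580 and 13.16 and 13.36 with vehicle at 2 weeks, so the GW2580 arrays overlapped those of 1 week (difference 0.36, adjusted p = 0.435 in limma). Heat shock genes were lower in all 15 members, with a median of -0.35 and none passing, and Hspa1a differed by -1.06 (adjusted p = 0.103). In the remaining pathway lists (cyclins and inhibitors, clock, cold-inducible, p53, oxidative phosphorylation, fatty acid, unfolded protein, MHC class II, YAP, surface ligands, NRF2, lysosome and Myc network) no member passed and medians lay between -0.17 and 0.18. With 1 array of these groups left out they ran from -0.39 to 0.31. The list of epithelial-mesenchymal and TGF-beta genes had 1 member of 17 that passed, Tgfbi, and the iron list 1 of 12, Cp, with medians of 0.08 (0.03 without GW2580 replicate 1 or vehicle replicate 2 at 1 week) and 0.04 (0.17 without GW2580 replicate 1). In the clock list Cry1, a clock repressor, read 6.71 and 6.78 at 1 week, 5.44 and 5.78 under GW2580 and 6.46 and 7.13 with vehicle at 2 weeks, a difference of -1.13 (adjusted p = 0.0716 in limma).

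The target of the inhibitor and its ligands did not pass. Csf1r read 7.71 and 7.91 at 1 week, 7.22 and 7.84 under GW2580 and 7.57 and 7.52 with vehicle at 2 weeks, a difference of -0.28 (95% interval -0.74 to 0.18, adjusted p = 0.528 in limma). Csf1 read 10.18 and 9.96, then 10.21 and 9.93, and 9.34 and 9.64 with vehicle at 2 weeks. Il34 read 8.58 and 8.74, then 8.22 and 8.56, a difference of -0.27 (adjusted p = 0.457). For Csf1r and Csf1 the arrays of 1 week and GW2580 overlapped. The list that joins the CSF1 axis to other growth factors had 18 tested members, a median of -0.22 and no call. The median was -0.11 without GW2580 replicate 1 and -0.10 without vehicle replicate 1 at 1 week.

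Markers of other cells that a GFP sort could carry along were present at low to middling brightness, and none of the 8 marker lists had a member that passed. In such mixed RNA, fewer cells of a type and less RNA per cell cannot be told apart. The macrophage list of 18 genes averaged 6.99 and 7.01 at 1 week, 6.74 and 7.10 under GW2580 and 7.02 and 7.14 with vehicle at 2 weeks, and its median difference was -0.08, which was 0.07 without GW2580 replicate 1 and -0.29 without GW2580 replicate 2. The fibroblast and smooth muscle list of 10 genes averaged 8.02 and 7.22, then 7.34 and 6.72, with a median of -0.58, which was -0.32 without vehicle replicate 1 at 1 week, -1.05 without vehicle replicate 2 and -0.35 without GW2580 replicate 2. The lung epithelium list of 14 genes averaged 7.42 and 7.01, then 7.18 and 6.37, with a median of -0.34, which was -0.02 without GW2580 replicate 2 and -0.12 without vehicle replicate 1 at 1 week. Its surfactant gene Sftpc read 8.33 and 9.29, then 7.90 and 7.19, and 9.98 and 9.25 with vehicle at 2 weeks.

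The leukocyte gene Ptprc (CD45) read 7.57 and 7.73 at 1 week, 6.98 and 6.85 under GW2580 and 6.97 and 7.11 with vehicle at 2 weeks, a difference of -0.74 (adjusted p = 0.0659 in limma). Retnla, a product of alternatively activated macrophages and of lung epithelium, read 7.82 and 7.54 at 1 week, 6.65 and 6.58 under GW2580 and 6.64 and 6.67 with vehicle at 2 weeks, and fell by 1.06 (SE 0.14, adjusted p = 0.0304). Its 4 arrays of 2 weeks were nearly equal, and both arrays of 1 week stood above them. The part of other cells in this and the other differences was not tested. Neutrophil, lymphocyte, endothelial, erythroid and mammary lists had medians between -0.09 and 0.07, and each turned sign with at least 1 array left out.

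**Figure D4:**
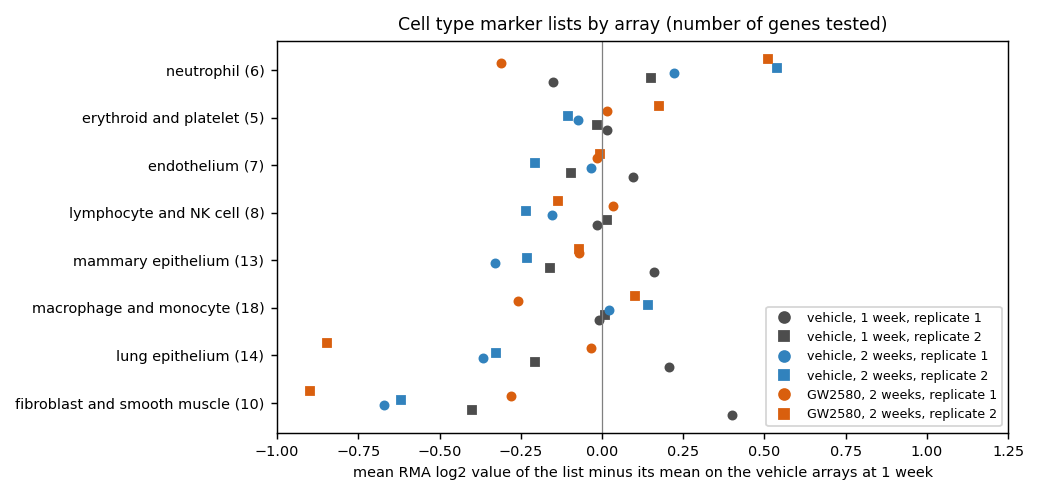
Mean RMA log2 value of each cell type marker list on each of the 6 arrays, minus the list's mean on the 2 vehicle arrays at 1 week (horizontal axis), with the number of tested genes beside each name. For lung epithelium the 2 GW2580 arrays lie apart, with list means of 7.18 and 6.37, and for fibroblasts the 2 arrays of 1 week do, at 8.02 and 7.22.

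For the genes that passed, the arrays of vehicle at 2 weeks show the level at the same time without the drug. Myo7a, an unconventional myosin, stood 1.83 above 1 week under GW2580 and read 6.94 and 7.17 there, beside 7.0 and 7.24 with vehicle at 2 weeks. Pde4b read 6.6 and 6.78 under GW2580 and 6.71 and 6.67 with vehicle at 2 weeks, and 5.53 and 5.33 at 1 week. In both genes the groups of 2 weeks overlapped, and the arrays of 1 week alone were low.

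Other genes that passed differed between the 2 groups of 2 weeks as well. They had been chosen by a test that used the same GW2580 arrays, so the 2 tests are not independent. Kcnh2 stood 1.49 above vehicle at 2 weeks (adjusted p = 0.0454 in limma), Prelp 1.09 above it (adjusted p = 0.0443) and Hcfc1r1 0.81 above it (adjusted p = 0.0463), while Mfsd6, a protein of the major facilitator superfamily, changed by -1.0 (adjusted p = 0.0483). In that comparison 48 of 13090 genes passed (0.367%, with 0.0688% higher and 0.298% lower). Mfsd6 read 6.97 and 7.33 at 1 week, 7.07 and 7.04 with vehicle at 2 weeks and 6.10 and 6.02 under GW2580. Prelp read 6.62 and 6.69 at 1 week, 7.10 and 7.01 with vehicle at 2 weeks and 8.25 and 8.04 under GW2580. In both genes the GW2580 arrays stood apart from all 4 vehicle arrays, and for Mfsd6 the vehicle arrays of the 2 times overlapped. No gene passed against vehicle at 2 weeks when vehicle replicate 2 at 2 weeks, GW2580 replicate 1 or either array of 1 week was left out, 6 did without vehicle replicate 1 at 2 weeks, and 167 did without GW2580 replicate 2. Fbln7, which passed the filter through its GW2580 arrays, read 4.57 and 5.07 with vehicle at 2 weeks and 5.89 and 6.40 under GW2580. The difference of 1.32 did not pass (adjusted p = 0.0599 in limma).

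**Figure D5:**
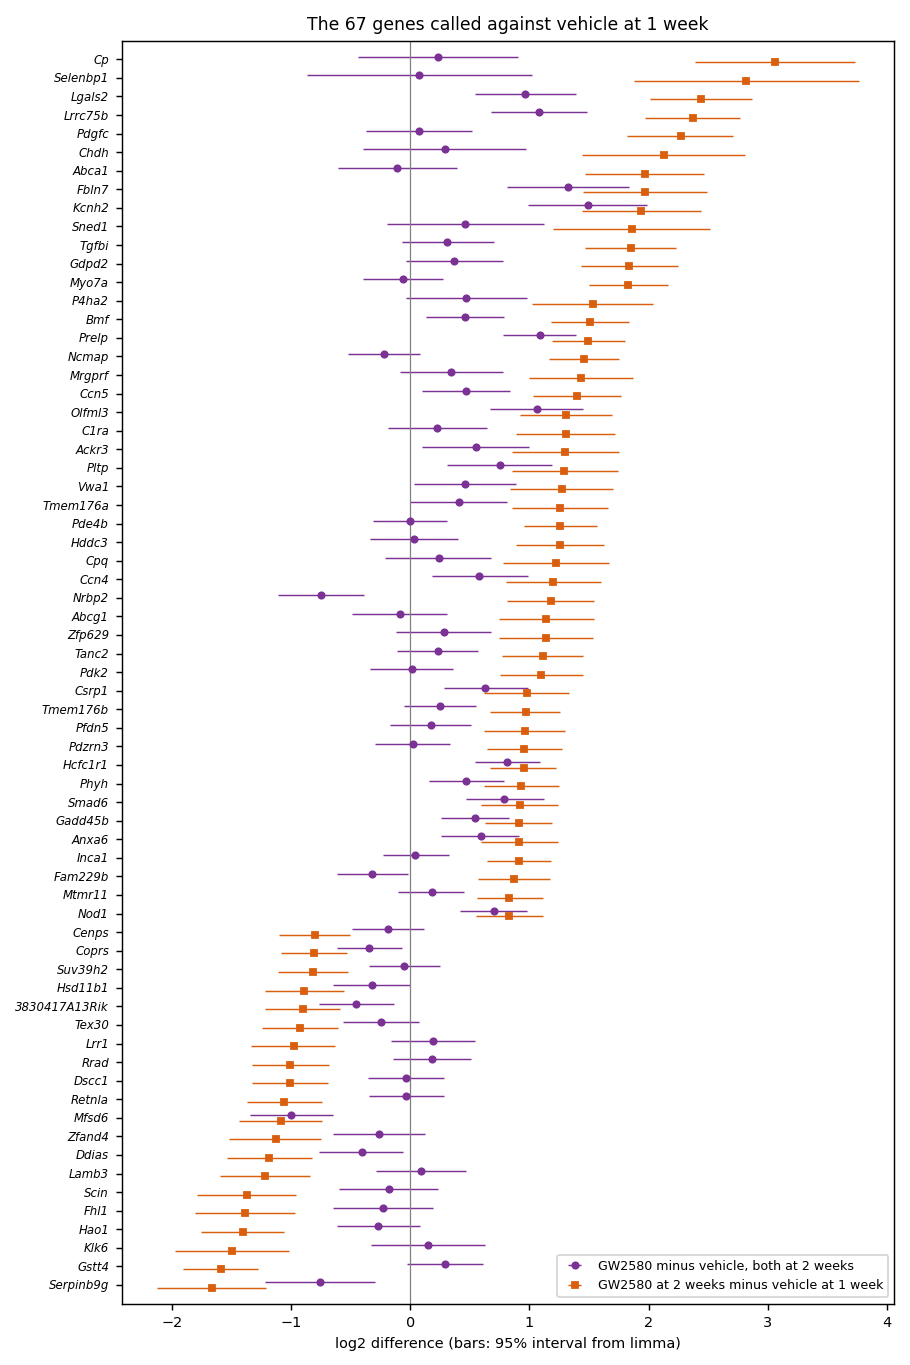
Log2 difference (horizontal axis) with its 95% limma interval for each of the 67 genes that passed against vehicle at 1 week, given against vehicle at 1 week (squares) and against vehicle at 2 weeks (circles). The squares run from -1.67 to 3.06 by choice of the genes, while the circles run from -1.0 for Mfsd6 to 1.49 for Kcnh2, and Cp lies at 3.06 and 0.23.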

How the data were processed

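RNA of sorted tumour cells was measured on 6 Affymetrix arrays, 2 per group. The deposited values are on a log2 scale and come from RMA, which the submitters' processing notes name. No further scaling was done. Of 45037 non-control probe sets, 34945 have 1 gene symbol, 932 have several and 9160 have none. A gene with several probe sets was read from its brightest, by the 6-array mean, and genes under 4.97, the 40th percentile, were left out.

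Group means were fitted on all 6 arrays with limma 3.58.1 in R 4.3.3 (lmFit and eBayes), and p-values were adjusted by Benjamini-Hochberg over 13090 genes. An exact permutation test of 2 against 2 arrays cannot go below 0.333. In simulated data with 200 changed genes, this fit recovered 71.2% of 2-fold and 9.6% of 1.5-fold changes, with 5.6% false calls. These shares describe the simulated data only. On the real arrays, deviations of same-numbered arrays correlated at 0.292 between the groups compared. The share of false calls among the genes that passed was not tested. The number of arrays limits the precision.

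Named genes are the 12 largest rises and falls that passed, up to 4 that passed of each list or otherwise the 2 with the smallest p, and the CSF1 axis and epithelial genes. Further genes that passed are given as members of the 67, and Bnip3, Ndrg1, Car9, the LXR targets and other list members outside the rule were picked after their values were seen. Members and lists were chosen with earlier results of these data known. Motifs were counted in RefSeq promoters (250 bases before to 50 after a start). The counts took in all tested members of a list, passed or not, so they describe the lists only. Alternatives were the scaling, the filter, the choice of probe set, robust and trended eBayes, a replicate block, the 4 arrays alone and leaving out each array.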

Additional observations from a re-analysis of the deposited data

Results flagged for a closer look

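GW2580 against vehicle at 2 weeks asks whether the change since 1 week differed between drug and vehicle. The same GW2580 arrays chose the genes that passed against 1 week, so this second test is not independent of that choice. The genes below passed both, the second narrowly, with adjusted p from 0.0443 to 0.0483 in limma. As given above, no call of the second test held with each array left out. Kcnh2 stood 1.49 higher under GW2580, Prelp 1.09 higher and Hcfc1r1 0.81 higher, and Mfsd6 differed by -1.0. Hcfc1r1 read 9.04 and 9.12 at 1 week, 9.24 and 9.18 with vehicle at 2 weeks and 10.04 and 10.01 under GW2580. In a fit of all probe sets, 4 probe sets without a single gene symbol passed against 1 week, with differences between 1.58 and 2.21.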

How the results depend on the processing

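All 67 genes kept their direction in each alternative in which they were tested. The count of 67 (47 higher, 20 lower) ran from 0 to 169 when an array was left out, from 0 to 94 for rises and from 0 to 75 for falls. With the 4 arrays alone it was 24 (19 and 5), and with all probe sets tested 32 (28 and 4). The robust fit called 35 falls and the trended fit 31. Samples with the same replicate number were not treated as paired. The correlation of their deviations was 0.292 between vehicle at 1 week and GW2580, the 2 groups compared. It was 0.002 between the vehicle groups and 0.009 between the groups of 2 weeks. The labels do not say whether same-numbered arrays share a batch. With the number as a replicate block 182 genes passed (116 and 66). A common 75th percentile, another filter or the mean of a gene's probe sets kept the count within 1.5 times, from 60 to 90. Among named genes that did not pass, the sign turned as arrays were left out for Cd3d (from -0.629 to 0.067), Cd79a (-0.397 to 0.09), Csf1r (-0.588 to 0.028), Csf1 (-0.143 to 0.14) and Epcam (-0.12 to 0.301), and by the mean of probe sets for Csf1 (0.08) and Epcam (-0.234). The causes were not tested. With 2 arrays a group, small changes were seldom recovered in the simulated data.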
